A study of Saccharomyces cerevisiae with 49 samples.

Results

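The genes described here encode the enzymes and transporters that break down fatty acids in the peroxisome of the budding yeast Saccharomyces cerevisiae. They were chosen by name, as the 10 genes POX1, FOX2, POT1, PXA1, PXA2, FAA2, ECI1, DCI1, SPS19 and CTA1, out of 5449 S. cerevisiae genes on the array. Each of the 10 had 1 probe set, and all 10 passed the filter on dim probe sets. Lower-case pot1 and pxa1 in the same annotation belong to another yeast species, had median signals of 1.3 each, and were not counted as members.

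The samples came from 1 continuous culture of strain CEN.PK113-7D (haploid, mating type a), which was fed a glucose medium and oscillated with a period of about 4 h. It was kept at 30 °C and pH 4.0 at a dilution rate of 0.06 to 0.086 per h with 19.25 g/l glucose monohydrate in the feed; the labels name 2 fermentor models without saying which one held these samples. A sample was taken every 5 min, 49 in all, and each was hybridised to 1 Affymetrix Yeast Genome 2.0 array, on which a probe set reports the signal of a gene's transcript. Before scaling, the array medians over S. cerevisiae probe sets ran from 1449.8 to 2582.3. The labels give every sample a phase angle but not the event that sets phase 0. For the comparisons the samples were placed in 12 windows of 30 degrees, each of 4 samples except phase 300-330 with 3, and the last 2 samples, which came back to phase 240-270 a cycle later, were kept apart as the second pass. No sample differed from another in strain or treatment, so phase is the variable compared. Elapsed time rose with phase, and within the first pass they cannot be told apart, while array numbers did not follow time order. All windows share 1 culture: p-values measure the spread between successive samples, which are not separate cultures.

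In yeast, fatty acids are oxidised in peroxisomes and not in mitochondria. A fatty acid enters through the Pxa1-Pxa2 ABC transporter as an acyl-CoA, or is activated inside the peroxisome by Faa2, and then passes through Pox1, Fox2 and Pot1, which shorten the chain and release acetyl-CoA. Pox1 gives its electrons to oxygen and forms hydrogen peroxide, which the catalase Cta1 removes. Eci1 and Sps19 prepare unsaturated chains for the main enzymes. Genes of this pathway are known to be induced by fatty acids such as oleate through the Oaf1-Pip2 activator and by Adr1 when glucose is low, and to be repressed by glucose.

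All 10 genes collapsed near phase 0, with the steepest step later in FOX2 and POT1. They stayed low for a median of 36.3 min between midpoints. They passed the midpoint of the rise together near phase 65. At 70.93 degrees they held 30.1% to 69.7% of their own medians before the fall, and at 86.24 degrees 124% to 292%. Signals are given after every array was scaled to 1 common median of its S. cerevisiae probe sets. The systematic names are YGL205W for POX1, YKR009C for FOX2, YIL160C for POT1, YPL147W for PXA1, YKL188C for PXA2, YER015W for FAA2, YLR284C for ECI1, YOR180C for DCI1, YNL202W for SPS19 and YDR256C for CTA1. The ratio of the highest to the lowest of the 49 samples ran from 19.5 for SPS19 to 90.7 for POT1. Every member was called as cycling by limma's moderated F test over 2 harmonics of the phase angle, with Benjamini-Hochberg adjusted p from 3.2e-14 for SPS19 to 2.19e-11 for FAA2. That test called 94.4% of the 5470 probe sets, so the call itself does not set the members apart.

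**Figure D1:**
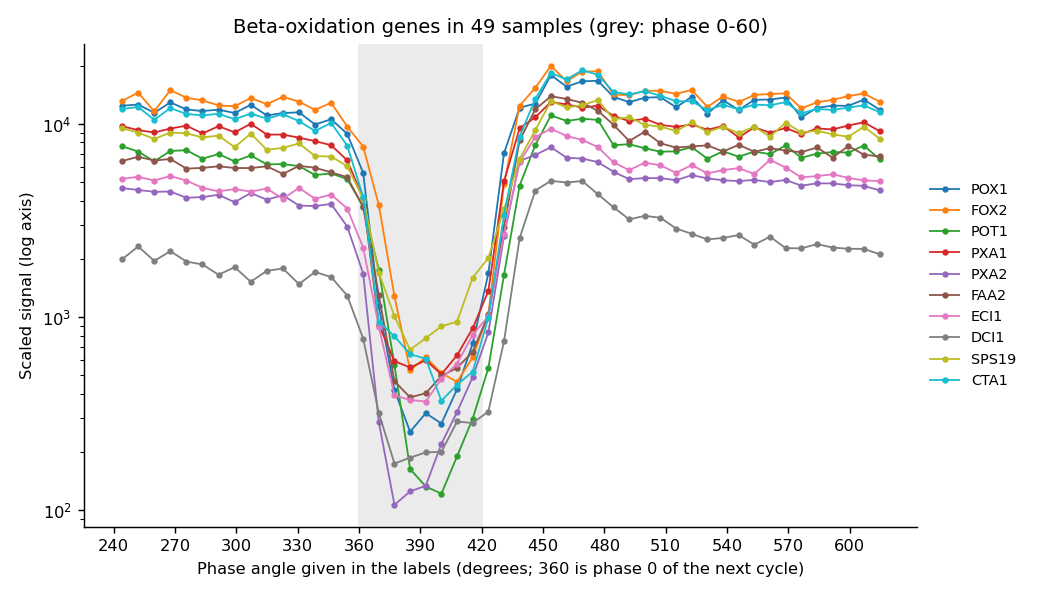
Scaled signal (log axis) of each of the 10 genes in all 49 samples against the phase angle of the labels in degrees, with phase 0-60 in grey. Every line drops just after 360 degrees, reaches its lowest sample within the grey band, and lies above its level of phase 330-360 in all samples of phase 90-120.

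POX1 encodes the acyl-CoA oxidase of the first step. POX1 had 5569, 1134, 418 and 255 in the 4 successive samples of phase 0-30, against 11464, 9909.7, 10557 and 8863 in phase 330-360. In phase 30-60 its signals were 318, 281, 422 and 729.5. None of the 8 samples of phase 0-60 reached the lowest sample of phase 330-360. The log2 difference was -3.49 (SE 0.49, limma adjusted p = 7.07e-08) for phase 0-30 minus phase 330-360 and -4.64 (SE 0.49, limma adjusted p = 4.54e-10) for phase 30-60 minus phase 330-360.

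FOX2 encodes the hydratase and dehydrogenase of the middle steps. Its signals were 7619.8, 3793, 1279.5 and 529 in phase 0-30, against 13022, 11787, 12853 and 9673 in phase 330-360, and it held 618, 512, 462 and 618 in phase 30-60. No sample of phase 0-60 reached the lowest of phase 330-360. At 9.7 degrees FOX2 held 30.8% of its own median in phase 330-360, and POX1 11.1% of its own. The log2 difference of FOX2 was -2.48 (SE 0.49, limma adjusted p = 2.37e-05) in phase 0-30 and -4.42 (SE 0.49, limma adjusted p = 1.28e-09) in phase 30-60.

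POT1, the thiolase that releases acetyl-CoA, reached the deepest relative trough of the 10. Its 4 samples of phase 0-30 read 3731, 1755, 563 and 163, against 6039, 5429, 5531 and 5169 in phase 330-360. In phase 30-60 it read 133, 122, 190.0 and 298, a mean of 185.6 ± 80.7 (SD, n = 4) against 5542 ± 365 (SD, n = 4) in phase 330-360. The groups did not overlap, and the log2 difference of phase 30-60 was -4.99 (SE 0.53, limma adjusted p = 4.91e-10). At its lowest sample POT1 held 2.22% of its median before the fall.

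PXA1 and PXA2, which encode the paired parts of the transporter, dropped at the same sampling step. PXA2 had 1679, 286, 107 and 125 in phase 0-30, against 3771, 3751, 3844 and 2937 in phase 330-360. PXA1 had 4109, 911, 591 and 548 in phase 0-30, against 8472, 8130.5, 7743 and 6472 in phase 330-360. Between 2.04 and 9.7 degrees PXA2 fell 5.88-fold and PXA1 4.51-fold, and neither overlapped its earlier window. PXA2 had turned upward by 40.3 degrees, with 134, 221, 322 and 489 in phase 30-60, while PXA1 had 597, 505, 634 and 875. Their log2 differences of phase 30-60 from phase 330-360 were -3.77 (SE 0.48, limma adjusted p = 2.75e-08) for PXA2 and -3.58 (SE 0.39, limma adjusted p = 7.76e-10) for PXA1.

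CTA1 encodes the peroxisomal catalase. Its signals were 4187, 947, 794.5 and 641 in phase 0-30 and 608, 368, 446 and 521 in phase 30-60, against 10311, 9179, 10098 and 7703 in phase 330-360. The sample at 2.04 degrees stood well above the other 3 of its window, and no sample of phase 0-60 overlapped phase 330-360. The log2 difference of phase 30-60 was -4.28 (SE 0.42, limma adjusted p = 7.99e-11).

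The auxiliary genes ECI1, DCI1 and SPS19 had the shallowest troughs. FAA2, which activates fatty acids within the peroxisome, lay close to PXA1. At their lowest samples FAA2 held 6.66% and PXA1 6.37% of their own medians before the fall. FAA2 read between 403 and 661 in phase 30-60, against 5295 to 6055 in phase 330-360. ECI1, the enoyl-CoA isomerase, read between 365 and 809, against 3642 to 4656. The same windows gave 777 to 1598 against 6036 to 7916 for SPS19, the dienoyl-CoA reductase. DCI1, a homologue of ECI1, read 199 to 288 against 1291 to 1710.2. No range overlapped its counterpart, and the log2 differences were -3.46 (SE 0.44) for FAA2, -2.96 (SE 0.38) for ECI1, -2.76 (SE 0.31) for SPS19 and -2.67 (SE 0.40) for DCI1, with limma adjusted p from 1.96e-09 to 5e-07.

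Over the 10 members the median log2 difference from phase 330-360 was -2.61 in phase 0-30 and -3.68 in phase 30-60, beside medians of 0.02 and 0.03 over all 5470 probe sets. In both windows 10 of 10 were called as lower, beside 37.5% of all probe sets in phase 0-30 and 29.6% in phase 30-60. All 10 were lower in every sample of phase 0-30 than in any of phase 330-360, as were 30.3% of all probe sets, and in every sample of phase 30-60, as were 22.7%. As higher, 0 of 10 were called, beside 38.1% of all probe sets in phase 0-30 and 31.4% in phase 30-60, and 0 were higher in every sample of phase 0-30, beside 27%, or of phase 30-60, beside 25.4%. A called fall of at least 4-fold was seen in 10 of 10 in both windows, beside 3.13% and 1.9% of all probe sets. The members were named with earlier results of these data known, so these counts describe them and test nothing further. The smallest signal of a member in any sample, 106.6 for PXA2, lay above 11.2, the 75th percentile of the medians of probe sets for other species.

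A window of phase 0-30 holds the fall itself, so its mean depends on which samples it includes. Without the sample at 2.04 degrees the 10 differences ran from -4.51 to -2.70, and without the sample at 25 degrees from -3.26 to -1.82, and all 10 stayed called as lower in both cases. With the values as deposited the median of all probe sets moved to -0.29 in phase 0-30, where 27.9% of calls were higher instead of 50.4%, and all 10 members were still lower. The 3' to 5' signal of the control transcript TDH1, a measure of RNA integrity, was also higher in the trough, at log2 0.41 ± 0.16 in phase 30-60 and 0.23 ± 0.13 in phase 0-30 against 0.05 ± 0.05 in phase 330-360 (SD, n = 4 each). For ACT1 it was 0.24 ± 0.04 in phase 30-60 and 0.41 ± 0.14 in phase 0-30 against 0.28 ± 0.08. For SPT15 it was 1.21 ± 0.01 in phase 30-60 and 0.99 ± 0.08 in phase 0-30 against 0.96 ± 0.05. For RIP1 it was 0.21 ± 0.14 in phase 30-60 and 0.34 ± 0.06 in phase 0-30 against 0.33 ± 0.07, so the 4 transcripts did not move one way. The part of RNA integrity in the fall was not tested. The arrays compare equal amounts of labelled RNA, so fewer copies per cell and a larger amount of other RNA cannot be told apart.

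The speed of the fall and of the rise was read from the steps between successive samples, 5 min apart, and is a description, since each time has 1 sample. All 10 already went down between 346.37 and 354.23 degrees, with a median log2 step of -0.26 beside -0.07 over all probe sets. Between 354.23 and 2.04 degrees all 10 went down again, with a median of -0.66. The steepest came next, between 2.04 and 9.7 degrees, with a median of -1.44, and the step to 17.35 degrees followed with -1.30. In the step from 25 to 32.66 degrees 7 of the 10 went up, with a median of 0.09. For 8 members the steepest fall lay between 2.04 and 9.7 degrees, for FOX2 between 9.7 and 17.35 degrees and for POT1 between 17.35 and 25 degrees.

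Expressed as a halving time within the steepest step, the fall took 1.96 min in PXA2, 2.18 min in POX1, 2.3 min in PXA1 and 2.33 min in CTA1. POT1 halved in 2.8 min, FOX2 in 3.19 min, FAA2 in 3.29 min and ECI1 in 3.67 min. The slowest were DCI1 and SPS19, with 3.90 and 3.93 min. The median of the 10 was 2.99 min, beside 9.94 min over the 2421 probe sets called as lower in phase 0-30 or phase 30-60. A single-step fall of at least 1 log2 unit was seen in 10 of 10 members and in 17.4% of those 2421 probe sets. A step of 5 min averages over any faster change, and these values are relative to the array median.

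**Figure D2:**
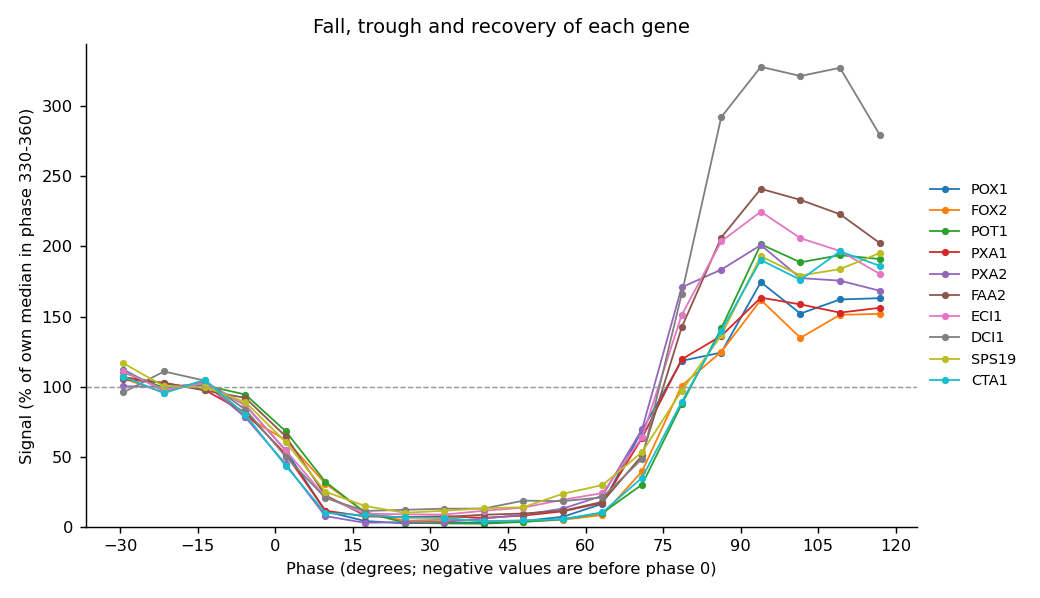
Signal of each gene as a percentage of its own median in phase 330-360 (dashed line at 100) against phase in degrees, with negative values before phase 0. All points from 17.35 to 47.97 degrees are at or below 18.6%, and DCI1 has the highest points, at up to 328% at 93.89 degrees.

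The fall midpoint is the phase at which a gene passed the middle, on the log2 scale, between its median in phase 330-360 and its lowest sample. The earliest 8 members passed it between 5.48 degrees (DCI1) and 8.69 degrees (FAA2), closer together than the sampling interval, so their order is not resolved. FOX2 at 13 degrees and POT1 at 14.9 degrees were later than FAA2, in each case by less than 1 sampling interval. The median of the 10 was 7.35 degrees, beside 4.12 degrees over the 2421 probe sets called as lower.

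Recovery began slowly and then steepened. Between 40.31 and 47.97 degrees 9 of 10 members rose, and by the step from 55.62 to 63.27 degrees all 10 did, with a median log2 step of 0.69. The steepest step, from 63.27 to 70.93 degrees, had a median of 1.63, and the next had 1.32. POX1 read 1680.3, 7046, 12109.7 and 12714 in the 4 samples of phase 60-90. The last 2 of these lay above its highest sample of phase 330-360, 11464.

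FOX2 read 1035, 4865, 12390.3 and 15362 in phase 60-90, and POT1 544, 1651, 4787 and 7758. CTA1 read 989, 3375, 8572 and 13472 in the same samples. At 70.93 degrees these 3 genes had the lowest levels relative to their own medians of phase 330-360, with 39.5% for FOX2, 30.1% for POT1 and 35.1% for CTA1, while PXA2 and POX1 had the highest, with 69.7% and 68.9%. SPS19 read 2019.8, 3612, 6580.0 and 9266, and had the smallest steepest step, a doubling in 5.78 min.

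Doubling within the steepest rising step took 2.24 min for FOX2, 2.42 min for POX1 and 2.65 min for PXA1, and between 2.82 and 3.55 min for POT1, PXA2, FAA2, ECI1, DCI1 and CTA1. The median of the 10 was 2.92 min, beside 11 min over the 2421 probe sets called as lower. As with the fall, doubling times do not separate speed from the depth of the trough, which was shallower in those probe sets. A rising step of at least 1 log2 unit was seen in 9 of 10 members, all but SPS19, and in 9.09% of those probe sets. FOX2, with the latest steep fall but for POT1, had the fastest doubling of the 10.

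The rise midpoint, the middle on the log2 scale between the lowest sample and the median of phase 60-90, lay between 59.8 degrees (SPS19) and 67.1 degrees (DCI1), a span of about 1 sampling interval. The median was 65 degrees, beside 39.7 degrees over the probe sets called as lower for which it could be read. From fall midpoint to rise midpoint the members took 32 min (POT1) to 40.2 min (DCI1), with a median of 36.3 min, beside 21.8 min. Phase 60-90 holds the rise itself, so its median is a partly recovered level. For DCI1 the median signal was 1655 there and 5009 in phase 90-120, and for PXA2 4522 and 6638. Measured against the later level, the rise midpoints would come later, by an amount that differs between genes. The members thus fell at about the time of other falling transcripts and passed the rise midpoint later. This difference is described and not tested. The 2421 probe sets were called as lower in either trough window, and every member in both. In phase 30-60 only 1619 were called, so some of the 2421 were called in the earlier window alone, which favours an early rise midpoint. Their lowest samples were also shallower, a median of 1.95-fold down against 20.9-fold in the members. The later rise midpoint cannot be separated from this choice of probe sets.

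**Figure D3:**
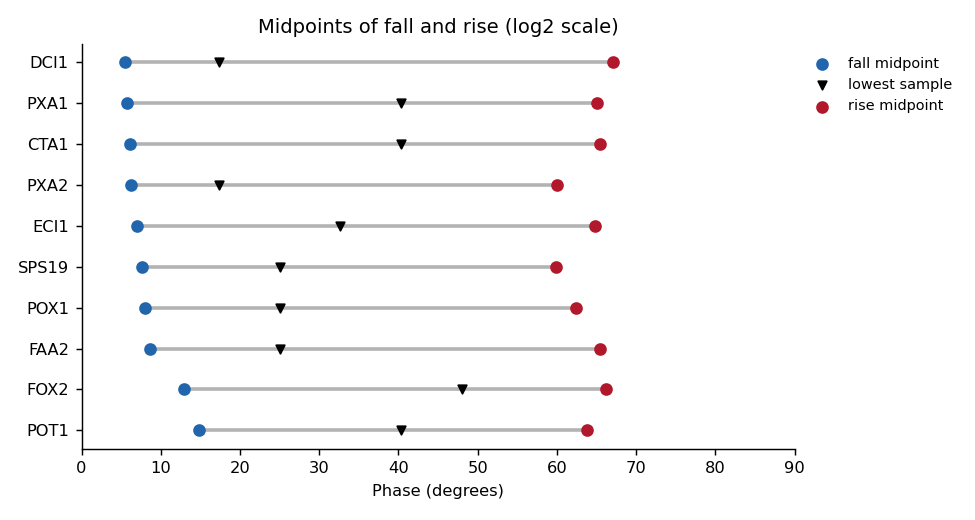
Phase in degrees of the fall midpoint (blue), the lowest sample (black triangle) and the rise midpoint (red) of each gene, ordered by fall midpoint from top to bottom. Rise midpoints lie between 59.8 and 67.1 degrees, and FOX2 and POT1 have the latest fall midpoints.

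In the test of phase 60-90 minus phase 30-60, 10 of 10 members were called as higher, beside 38% of all probe sets, and 10 of 10 by at least 4-fold, beside 1.26%. Every sample of phase 60-90 was above every sample of phase 30-60 in 10 of 10, beside 26.8%. None was called as lower, beside 34.7%, or was lower in every sample, beside 26%. The median log2 difference of the members was 3.11, beside 0.03 over all probe sets. It was largest for POX1 at 4.00 (SE 0.49, limma adjusted p = 9.18e-09), followed by POT1 at 3.79 (SE 0.53) and PXA2 at 3.59 (SE 0.48). It was smallest for SPS19 at 2.18 (SE 0.31, limma adjusted p = 1.74e-07) and DCI1 at 2.44 (SE 0.40). Without the sample at 63.27 degrees the differences ran from 2.58 to 4.66, and without that at 86.24 degrees from 1.84 to 3.68, with all 10 called as higher in both cases.

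Whether levels after the recovery matched those before the fall was asked in phase 60-90 minus phase 330-360. Since phase 60-90 holds the rise itself, the result turned on its first samples. CTA1 was called as lower, by -1.06 on the log2 scale (SE 0.42, limma adjusted p = 0.028), and no other member passed in either direction, beside 27.7% of all probe sets lower and 28.6% higher. The count of members called as lower was 0 without the sample at 63.27 or 70.93 degrees, or without that at 330.63 or 346.37 degrees, 3 without the sample at 78.58 degrees and 6 without the sample at 86.24 degrees. In a fit of these 8 samples alone CTA1 had a limma adjusted p of 0.259.

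By phase 90-120 every member stood above its level before the fall. This window was chosen after the data were seen. POX1 read 17848, 15557, 16587 and 16679.5 there, a mean of 16668 ± 937 against 10198 ± 1095 in phase 330-360 (SD, n = 4 each). DCI1 read 5065, 4964, 5054 and 4319, a mean of 4850.4 ± 357 against 1523 ± 181 (SD, n = 4 each). Phase 330-360 includes the start of the fall, and every member had a higher mean in phase 240-270. The excess over that earlier window was smaller: POX1 averaged 12317 ± 647 there and DCI1 2112 ± 173 (SD, n = 4 each). All 10 members were higher in every sample of phase 90-120 than in any of phase 330-360, as were 39.5% of all probe sets.

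The ratio of the means of phase 90-120 to phase 330-360 was 3.19 for DCI1, 2.27 for FAA2 and 2.03 for ECI1. It lay between 1.85 and 1.93 for SPS19, PXA2, POT1 and CTA1, and was 1.63 for POX1, 1.63 for PXA1 and 1.56 for FOX2. The fit over all windows, whose spread includes the steep windows, called 5 members as higher (DCI1, FAA2, ECI1, SPS19 and CTA1), beside 39.1% of probe sets, and 0 as lower, beside 27.5%. A fit of those 8 samples alone called 10 of 10, beside 42%, with limma adjusted p from 2.7e-06 for DCI1 to 0.000515 for FOX2. The median of all probe sets moved by 0.11 on the log2 scale in the same comparison.

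**Figure D4:**
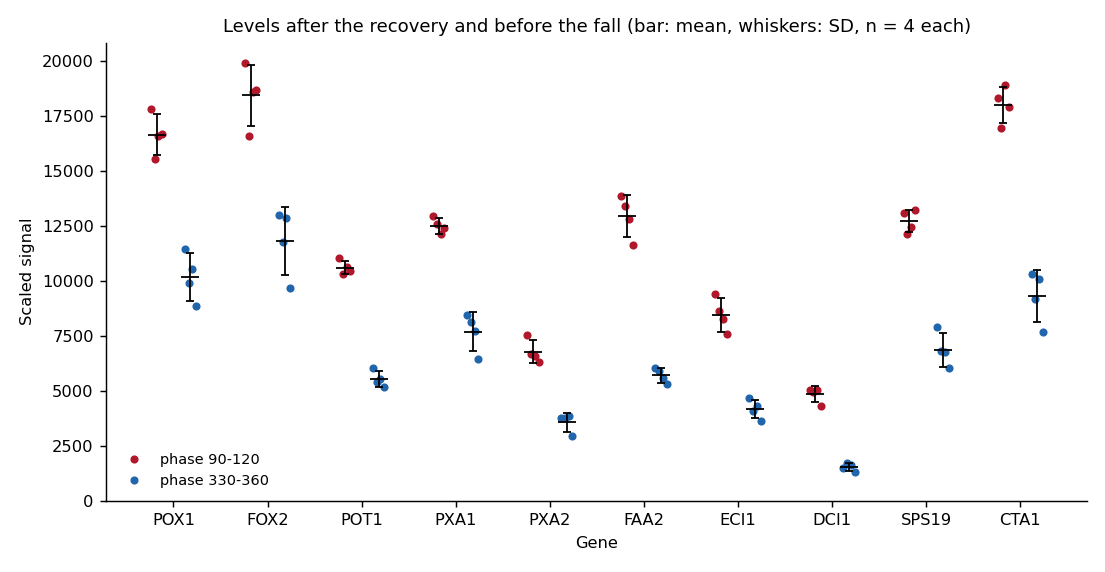
Scaled signal of each gene in the 4 samples of phase 90-120 (red) and of phase 330-360 (blue), with the mean and SD. No red point of any gene lies at or below a blue point of the same gene.

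After phase 120 every member declined, with a lower mean in phase 210-240 than in phase 120-150. DCI1 averaged 3374 ± 222 in phase 120-150, 2662 ± 157 in phase 150-180, 2474 ± 184 in phase 180-210 and 2298 ± 58.1 by phase 210-240 (SD, 4 samples a window), while its 3 samples of phase 300-330, taken before the fall, averaged 1679 ± 138 (SD, n = 3). FAA2 averaged 8759 ± 902, 7518 ± 238, 7419 ± 275 and 7251 ± 446 in the same 4 windows (SD, n = 4 each). The mean of POX1 was 13523 ± 394 in phase 120-150, with 11915 ± 761 by phase 210-240 (SD, n = 4 for both). For CTA1 it was 14367 ± 348 and 11792 ± 342 (SD, n = 4 for both). These later windows were not tested against each other. Across all 49 samples the 45 pairs of members had a Pearson r of the log2 signals from 0.93 (POT1 with DCI1) to 0.99 (FAA2 with ECI1). Outside the pulse, in 29 samples of phase 120-330 and the second pass, r ran from 0.38 (FOX2 with FAA2) to 0.93 (FAA2 with DCI1), with a median of 0.71. These r are descriptions, since samples follow each other in 1 culture and share their array scaling.

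In the second pass the genes were back near their levels of a cycle earlier. POX1 read 13325 and 11828 in the second pass, against 11398 to 12898 in phase 240-270. FAA2, with 6923 and 6769 against 6414 to 6745, was the member for which both values lay outside the earlier range. Of the 20 values of the 10 members 11 lay within the range of the 4 earlier samples, and the ratio of means ran from 0.97 for ECI1 to 1.05 for FAA2. In limma's test 0 members and 0 of 5470 probe sets passed the adjusted threshold, 71 (1.3%) had an unadjusted p under 0.05, and 0 of these were members. In a fit of these 6 samples alone 0 members and 1 probe set passed the adjusted threshold, 274 (5.01%) had an unadjusted p under 0.05, and again 0 of these were members. The spread of the fit over all windows includes the steep ones: the log2 difference of POX1 was 0.03 with an SE of 0.60, against an SE of 0.08 in the fit of the 6 samples.

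Other genes of fatty acid breakdown moved less uniformly. The list holds 25 genes for regulators, import, carnitine and cofactor shuttles, lipases and synthetases, all of which passed the filter. In phase 0-30, 18 were lower and 4 higher than in phase 330-360, beside 37.5% and 38.1% of all probe sets. In phase 30-60, 12 were lower and 4 higher, beside 29.6% and 31.4%. The median log2 differences of the list were -0.45 and -0.19. In phase 60-90, 17 were higher and 1 lower than in phase 30-60, beside 38% and 34.7%. The falls of at least 4-fold that all 10 enzymes and transporters showed were called in 3 of the 25 in phase 0-30 and in 2 in phase 30-60. Over all probe sets these shares were 3.13% and 1.9%.

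IDP3 and CAT2 had the most negative differences of the 25 in both windows. IDP3, the peroxisomal isocitrate dehydrogenase that supplies the NADPH used by Sps19, averaged 251 ± 77.5 in phase 30-60 against 3412 ± 479 in phase 330-360 (SD, n = 4 each). Its log2 difference in phase 0-30 was -3.04 (SE 0.48, limma adjusted p = 5.76e-07). CAT2, carnitine acetyltransferase, which passes acetyl groups on from the peroxisome, averaged 2185 ± 1971 in phase 0-30 and 1359.7 ± 1111 in phase 30-60, against 8972 ± 1139 in phase 330-360 (SD, n = 4 each). CAT2 and IDP3 had the largest rises of the list, with log2 differences of 3.46 (SE 0.38) and 3.36 (SE 0.48). TES1, a peroxisomal thioesterase, fell by 1.84 (SE 0.27) and rose by 1.67 (SE 0.27) on the log2 scale.

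ADR1, the activator that works when glucose is low, was low in phase 0-30 and overlapped its earlier level in phase 30-60. It averaged 1324 ± 977 in phase 0-30 and 3921 ± 1834 in phase 30-60, against 4376 ± 486 in phase 330-360 (SD, n = 4 each). The log2 difference was -2.01 (SE 0.26, limma adjusted p = 1.79e-08) in phase 0-30 and -0.28 (SE 0.26, limma adjusted p = 0.361) in phase 30-60, when all 10 members were called as lower. PIP2 and OAF1, which encode the paired parts of the oleate activator, were named after their values were seen. PIP2 was lower in both windows, by -1.10 (SE 0.18) and -1.12 (SE 0.18), and OAF1 was lower in phase 0-30, by -0.39 (SE 0.07), while its difference in phase 30-60 was -0.13 (SE 0.07, limma adjusted p = 0.107). CRC1, the mitochondrial carnitine carrier, differed by -0.45 (SE 0.26, limma adjusted p = 0.112) in phase 0-30 and rose by 2.01 (SE 0.26) in phase 60-90.

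The 4 list genes called as higher in phase 0-30 had small differences, 0.22 for AAT2, an aspartate aminotransferase, 0.19 for CIT2, the peroxisomal citrate synthase, 0.18 for ANT1, the peroxisomal ATP carrier, and 0.16 for TGL5, a triacylglycerol lipase. All 4 turned to lower values with the signals as deposited, from -0.15 to -0.09, and CIT2 also with quantile normalization, so their direction depends on the scaling. PCS60, a peroxisomal oxalyl-CoA synthetase, was the list gene called as lower in phase 60-90 than in phase 30-60, by -0.40 (SE 0.09, limma adjusted p = 0.000275).

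**Figure D5:**
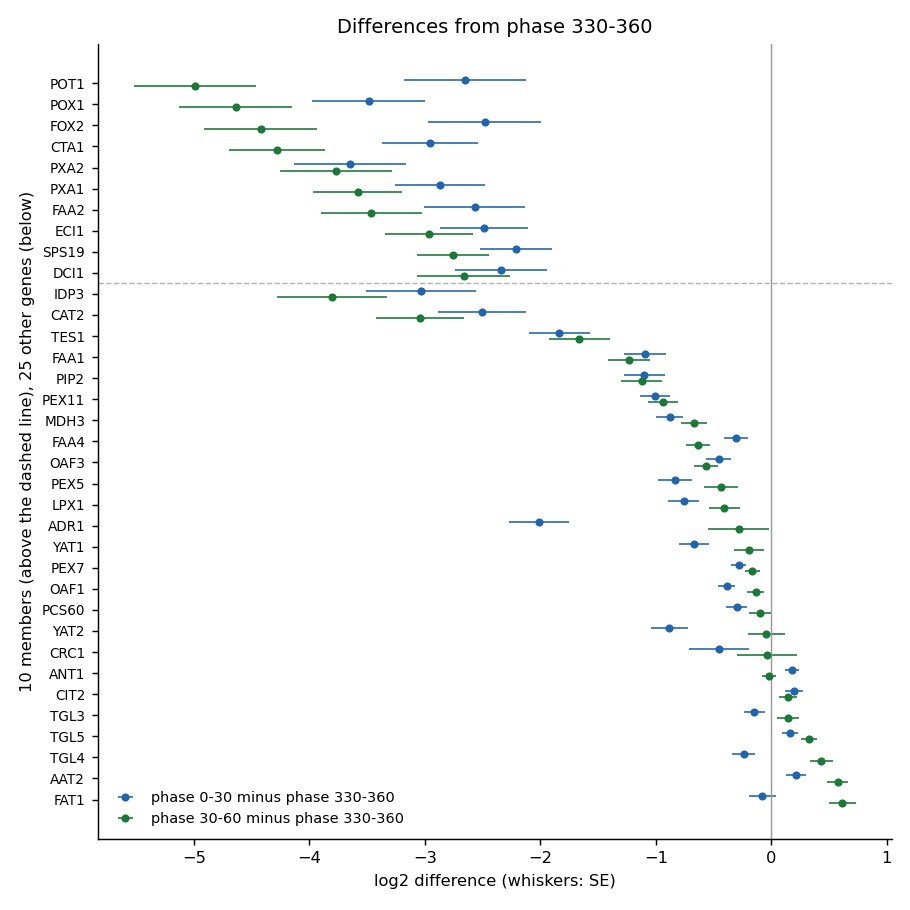
Log2 difference from phase 330-360 with its SE for the 10 members (above the dashed line) and the 25 other genes of fatty acid breakdown (below it), in phase 0-30 (blue) and phase 30-60 (green). IDP3 and CAT2 lie among the members, and ADR1 is at -2.01 in phase 0-30 and at -0.28 in phase 30-60.

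The genes most like the family were ranked by the Pearson r, over the 49 samples, with the mean of the standardised log2 signals of the 10 members. IDP3 (0.997) came first, followed by FAT3 (0.996), SPG1 (0.992), LAP3 (0.985), CIT3 (0.984), FAA1 (0.983), ADY2 (0.982) and GPX1 (0.982). FAT3 (YKL187C) lies next to PXA2 (YKL188C) on the chromosome, and fell by -3.62 (SE 0.49) in phase 0-30. Since r does not depend on the size of the change, LAP3, an aminopeptidase, ranked high with a log2 difference of -1.12 (SE 0.14) in phase 30-60, against -4.88 (SE 0.52) for SPG1. Under the other scalings 6 or 7 of the 8 genes stayed among the first 8.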

How the data were processed

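Signals were measured in 49 samples on Affymetrix Yeast Genome 2.0 arrays. The deposited values are probe-set intensity on a linear scale, and the submitters' processing notes name GCOS as the software of the authors; no source used here gives its version or settings. Of 10928 probe sets, 5498 were annotated to 1 S. cerevisiae gene (5449 genes, 12 symbols updated through the RefSeq table), 1746 to another species, 1 to several genes and 3683 to none. Each array was multiplied by a factor (0.732 to 1.30) that set its median over S. cerevisiae probe sets to a common value, signals were floored at 1 and log2 was taken. The 28 probe sets with a median at or below 11.2 were left out, and 5470 were tested with limma 3.58.1 in R 4.3.3 (lmFit and eBayes, 1 term per window, all 49 samples, Benjamini-Hochberg adjusted p under 0.05), and cycling with 2 harmonics of phase. The fits were tested on simulated data. Array number limits the precision: each comparison has 4 samples a window, or 2 in the second pass. Speeds were computed with Python 3.11.15, numpy 2.4.6 and pandas 2.3.3, and plots drawn with matplotlib 3.10.9.

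The named genes are the 10 members, for the list of other genes the 4 with the largest called change in each direction of the fall and rise, and the 8 genes with the highest r. The members and lists were chosen with earlier results of these data known. Alternatives covered the scaling, the filter, a value added to the signal, the variance trend, array number as a term, only the groups compared, and leaving out each sample. Series-wide columns left unused numbered 0.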

Additional observations from a re-analysis of the deposited data

Results flagged for a closer look

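Of 110 groups of 4 samples (10 genes in 11 windows), 8 held a sample whose gap to its nearest neighbour exceeded 0.829 of the range, and chance flags about 1 in 20 groups. That rate holds for independent samples without a trend, whereas these windows hold successive samples and the genes share arrays. In phase 0-30 the first sample, at 2.04 degrees, stood above the other 3 for POX1 (5569.3, others 254.9 to 1134.3), PXA1 (4108.8, others 547.8 to 910.9), PXA2 (1678.8, others 106.6 to 285.5) and CTA1 (4187.1, others 641.4 to 946.6). These 4 values share 1 array and come from the start of the fall, when all 10 members were still going down. PXA2 also had a low last sample in phase 330-360, with 2937.0 at 354.23 degrees against 3750.6 to 3844.3.

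Of the rest, POX1 had 12937.7 at 132.16 degrees in phase 120-150, against 13643.4 to 13774.2 in the other 3 samples. PXA2 had 5639.7 at 124.51 degrees in the same window, against 5167.1 to 5232.1. DCI1 had 4318.8 at 116.85 degrees in phase 90-120, against 4964.0 to 5064.9.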

How the results depend on the processing

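The calls of all 10 members in the fall, the late trough and the rise were the same under every alternative run. Of the values of single genes under alternatives, 974 kept direction and side of the threshold, 27 lost the call, 13 gained it and 57 reversed. With the signals as deposited, 997 probe sets were higher in the fall (2083 with scaling), 949 lower in the late trough (1619) and 975 lower in phase 60-90 than in phase 330-360 (1517), and the median rise midpoint was 61.6 degrees (65 with scaling).

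Of the 25 other genes, 4 were higher in the fall, but 0 as deposited, 0 with the same trimmed mean, 0 with only the groups compared, 1 with quantile normalization and 1 to 4 with a sample left out; as deposited TGL5 was -0.1497, ANT1 -0.133, CIT2 -0.1143 and AAT2 -0.0915, and CIT2 was -0.0209 with quantile normalization. In phase 60-90 minus phase 330-360, 1 member was lower, but 3 with quantile normalization, 2 with the same trimmed mean, a median signal above 100, 16 added to the signal or an intensity trend, 0 with only the groups compared (CTA1 adjusted p = 0.259 in limma), and 0 to 6 with a sample left out; other genes lower numbered 1, but 2 with quantile normalization, 2 with the same trimmed mean and 1 to 5 with a sample left out. With a sample left out, the differences ran from -0.956 to 0.0172 for POX1, -0.931 to 0.0648 for PXA1, -0.5607 to 0.4567 for PXA2, -0.9735 to 0.2049 for FAA2, -0.6898 to 0.3376 for ECI1 and -0.8281 to 0.4384 for DCI1.

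With phase 90-120 in place of phase 60-90, a choice made after seeing the data, 0 members were lower and 5 higher (10 with only the groups compared). Among the 25 other genes 19 were higher in both fits, beside 39.1% of all probe sets, or 42% with only the groups compared. The differences of the members were 0.7134 for POX1, 0.6477 for FOX2, 0.9397 for POT1, 0.7072 for PXA1 and 0.9308 for PXA2. They were 1.1787 for FAA2, 1.0229 for ECI1, 1.6763 for DCI1, 0.895 for SPS19 and 0.9598 for CTA1.

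In the second pass, 0 to 1 probe sets were lower with a sample left out and 1 was higher with only the groups compared. As deposited, where the median of all probe sets moved to -0.37, POX1 was -0.3465, FOX2 -0.3553, POT1 -0.3729, PXA1 -0.3299, PXA2 -0.3367, FAA2 -0.3107, DCI1 -0.3255, SPS19 -0.3673 and CTA1 -0.3373. POT1 was -0.0033 with quantile normalization and -0.0046 with the same trimmed mean, and with array number as a term POX1 was -0.0241, FOX2 -0.0511 and POT1 -0.0249. With a sample left out the ranges were -0.0569 to 0.115 for POX1, -0.0519 to 0.0912 for FOX2, -0.1145 to 0.1197 for POT1, -0.0307 to 0.122 for PXA1, -0.0935 to 0.1099 for SPS19 and -0.0186 to 0.0951 for CTA1. The cause of these changes was not tested.

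No paired analysis was possible because the labels give no replicate numbers. The steep change within phases 0-30 and 60-90 enters the spread of the fit over all windows. The lowest member signal in any sample, 106.6 for PXA2, was above 11.2, the 75th percentile of the medians of probe sets for other species. Members were not compared with the brighter of those probe sets.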
